A study of Mus musculus with 12 samples.

Results

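The RNA of pancreatic islets from wild-type (WT) mice was described on its own, with no comparison of levels between genotypes. Only the spread between animals was also measured within the other genotypes. The members are the 4 WT libraries among the 12 of the series, 1 library for each animal, and they were chosen by the genotype in their labels. The other libraries came from 4 heterozygous (Wfs1HZ) and 4 homozygous (Wfs1KO) animals of the Wfs1tm1Koks line, in which the gene for wolframin, a membrane protein of the endoplasmic reticulum (ER), is disrupted. All animals were adult male F2 hybrids of C57BL/6 and a second inbred strain. WT animals carried no disrupted Wfs1 allele and received no treatment. Islets were freed with collagenase, picked by hand, and kept overnight in medium with 4.5 g/L glucose before RNA was taken, so the values describe cultured islets. Each library is a bulk sample of all cells that were picked, and whether any of the WT animals were siblings is not given in the sources used here.

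Islets are small endocrine organs within the exocrine pancreas. Beta cells make insulin and amylin, alpha cells glucagon, delta cells somatostatin and PP cells pancreatic polypeptide. The hormones enter the ER as precursors, are folded there, pass the Golgi and are cut by convertases in dense-core granules. In beta cells, glucose metabolism closes ATP-sensitive potassium channels, the membrane depolarizes, calcium enters and granules fuse with the membrane.

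The deposited values are RPKM, reads scaled to transcript length and to the reads of the library, so levels can be set side by side between genes. From the steps between values of short RNA genes, the number of reads by which the RPKM are scaled in the 4 WT columns was estimated at 8753000, 8908000, 2895000 and 6366000 reads for WT replicates 1 to 4. This is not the number of reads that were sequenced. At these totals 3 reads on a transcript of 2 kb are worth 0.171, 0.168, 0.518 and 0.236 RPKM, counting error only, and WT replicate 3 is the library in which low transcripts were measured least well. The table lists 24078 entries, of which 892 are small RNA genes by name and 23186 are not. All shares below are percentages of the summed RPKM of the 23186 entries in each animal. The Spearman correlation between pairs of WT columns over these entries was 0.912 to 0.942, as a description of libraries that share 1 gene table and its length scaling.

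Of the 23186 entries, 54.2% averaged at least 1 RPKM across the 4 animals, 22.5% of at least 10 RPKM and 1.2% of at least 100 RPKM. Only 32 entries reached 1000 RPKM, and 4 of them lay far above the rest. These 4 were Gcg, the precursor of glucagon, Ctrb1, the chymotrypsinogen of acinar cells, and the insulin genes Ins1 and Ins2. The label of the libraries as islets was met by the hormones of each endocrine cell type, which lay among the 12 highest entries by mean. Enzymes of acinar cells, the exocrine cells around islets, were high in all 4 animals too. Because the samples are bulk, fewer cells of a type and less RNA per cell cannot be told apart anywhere below.

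Gcg, on the minus strand of chromosome 2 in mm10, had the highest mean. It stood at 59439.7, 182240.4, 109573 and 73228 RPKM in WT replicates 1 to 4. It was the highest entry in WT replicates 2 and 3, the next after Ins2 in WT replicate 1, and ranked 4 in WT replicate 4. Ctrb1 stood at 48373, 41103, 88591 and 94362 RPKM, and Ins1 at 57662, 13075, 23203 and 91587 RPKM. Ins2 stood at 67080.1, 15292, 23011 and 76687 RPKM. The highest entry was therefore Ins2 in WT replicate 1, Gcg in WT replicates 2 and 3, and Ctrb1 in WT replicate 4. The highest entry of each animal held 20.4% ± 9.75 (SD, n = 4) of the RPKM. The 4 highest held 47.1% ± 4.91 and the 10 highest 53.8% ± 4.62, and between 4 and 11 entries made up 50% of the total. In reads rather than RPKM, which does not divide by transcript length, the 10 highest entries held 29.2%.

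The 25 highest entries by mean held 7 members of the hormone list, 10 of the acinar list, 2 of the REG family of secreted lectins and 6 outside these lists. The 6 others were Malat1, a nuclear noncoding RNA, 2210010C04Rik, Ttr (transthyretin, which alpha cells make), B2m (the light chain of class I histocompatibility molecules), Clu (clusterin, a secreted chaperone) and Scg2 (secretogranin 2 of the granule). 2210010C04Rik was highest in WT replicate 3 and lowest in WT replicate 2, as most acinar markers were. It was not on the acinar list, so 10 counts the members of that list only. The order within the 25 highest was loose. Of the 24 neighbouring pairs, 23 had ranges over the 4 animals that overlapped, and only 2 pairs kept their order in all 4 animals. The pair whose ranges did not overlap was Ins2 and Sycn. Ins1, at 13075 RPKM in WT replicate 2, overlapped with Sycn. Gcg ranked first and Ctrb1 second under each alternative tried, while Ins1 and Ins2 changed places by the median and without WT replicate 4. Of the 100 highest entries of each animal, 77 were shared by all 4.

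**Figure D1:**
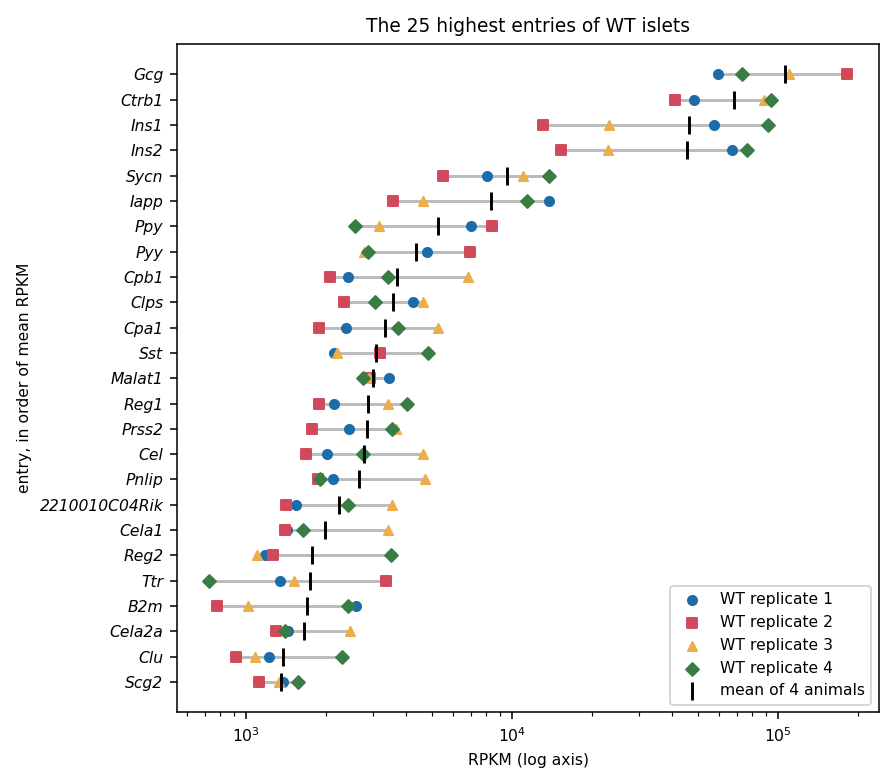
RPKM (log axis) of the 25 entries with the highest mean over the 4 WT animals, with a symbol for each animal, a black tick for the mean and a grey line for the range. The means of Gcg, Ctrb1, Ins1 and Ins2 lie to the right of all others, though Ins1 in WT replicate 2 is below the highest points of Sycn and Iapp, and WT replicate 2 is highest for Gcg and lowest for Ins1 and Ins2.

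The regions before the start sites of Gcg, Ins1 and Iapp, the amylin gene that beta cells release with insulin, are shown because Ins1 and Iapp moved together between animals while Gcg did not. Of the 4 highest hormones 3 were matched in the table, and Ins2 was not. The sequences are from RefSeq on GRCm38.p6, the build that the labels call mm10, and run from 250 bases before to 50 bases after the annotated start. Gcg lies at chr2:62483604-62483903 on the minus strand, Ins1 at chr19:52264047-52264346 on the plus strand and Iapp at chr6:142298175-142298474 on the plus strand. Capitals mark CATCTG, the E-box letters known from insulin gene promoters, and TATAAA, each on either strand. Only exact letters were searched, so a variant, or a site outside the windows, would be missed. The second CATCTG of Ins1 lies after the annotated start, at bases 42 to 47.
Gcg: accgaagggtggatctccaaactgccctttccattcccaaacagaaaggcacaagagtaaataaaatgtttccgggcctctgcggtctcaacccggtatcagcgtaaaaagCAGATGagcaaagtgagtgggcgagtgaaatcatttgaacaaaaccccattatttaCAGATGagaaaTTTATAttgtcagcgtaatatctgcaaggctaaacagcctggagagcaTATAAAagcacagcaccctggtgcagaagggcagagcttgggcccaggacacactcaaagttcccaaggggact
Ins1: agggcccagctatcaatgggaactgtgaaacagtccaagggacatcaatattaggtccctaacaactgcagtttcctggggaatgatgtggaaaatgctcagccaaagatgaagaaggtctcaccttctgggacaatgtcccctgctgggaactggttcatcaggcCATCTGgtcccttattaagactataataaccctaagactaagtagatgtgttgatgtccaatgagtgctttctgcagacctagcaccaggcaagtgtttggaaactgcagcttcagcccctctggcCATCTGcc
Iapp: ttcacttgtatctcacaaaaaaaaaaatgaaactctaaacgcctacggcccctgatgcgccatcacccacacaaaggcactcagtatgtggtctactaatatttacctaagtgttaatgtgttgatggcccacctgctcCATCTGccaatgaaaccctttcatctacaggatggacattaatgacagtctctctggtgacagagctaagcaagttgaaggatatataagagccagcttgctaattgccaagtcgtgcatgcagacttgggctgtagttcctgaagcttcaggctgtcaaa
CATCTG occurred 2 times in the Gcg window, 2 times in that of Ins1 and 1 time in that of Iapp. TATAAA occurred in the Gcg window alone of the 3. The annotated transcript of Ins1 has 1062 nt, against 552 nt for Ins2, and whether transcription starts at its annotated start was not tested. The lack of TATAAA therefore describes the Ins1 window and not the Ins1 promoter. Of 32851 windows of the same length in the RefSeq table, 17.2% held CATCTG and 13.6% TATAAA. The letters TAATTA, the core of many homeodomain sites, and TGACGTCA, the cAMP response element, were searched as well and were in none of the 3 windows, against 5.29% and 1.79% of all windows. A match of letters is a description of the window and not a site of binding.

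The 22 hormones and peptides of the list together held 38.6%, 43.7%, 31.1% and 42.2% of the RPKM in WT replicates 1 to 4, a mean of 38.9% ± 5.61 (SD, n = 4). Of them 20 had a mean of at least 1 RPKM, 12 of at least 10 RPKM and 7 of at least 100 RPKM. In reads their share was 19.5%, and without Ins1 and Ins2 in the list it was 23.0% of RPKM. The total varied 1.40-fold between animals, less than its parts did.

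Insulin, the beta cell hormone that lowers blood glucose, is made from a pair of genes in the mouse. Ins1 and Ins2 together held 22.7%, 5.32%, 8.52% and 27.0% of the RPKM, a range of 5.07-fold. The ratio of Gcg to the sum of Ins1 and Ins2 was 0.477, 6.42, 2.37 and 0.435. WT replicates 1 and 4 thus had more insulin than glucagon RNA, and WT replicates 2 and 3 had more glucagon than insulin RNA. The sum of Gcg, Ins1 and Ins2 varied less, from 28.7% to 39.5%. The ratio of Ins1 to Ins2 stayed between 0.855 and 1.19. The longest stretch that the annotated transcripts of Ins1 and Ins2 have in common is 56 nt. This is shorter than the 75 bp forward read and longer than the 35 bp reverse read. How reads were divided between Ins1 and Ins2 was not tested.

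Iapp stood at 13725, 3575, 4633 and 11349 RPKM. Its animals fell into the same high and low pairs as Ins1 and Ins2. Ppy, pancreatic polypeptide, stood at 6979, 8388, 3167 and 2557 RPKM, and Pyy, peptide YY, at 4768, 6972, 2769 and 2859 RPKM. Both were higher in WT replicates 1 and 2 than in the other animals. Sst, somatostatin, which restrains its neighbours' secretion, stood at 2134, 3182, 2199 and 4814 RPKM and was highest in WT replicate 4. After Sst the list dropped by more than an order of magnitude. Nucb2, the precursor of nesfatin, stood at 83.4, 65.4, 110 and 117 RPKM (mean 94.1). Ucn3, the urocortin of mature beta cells, stood at 63.6, 23.6, 73.7 and 55.7 RPKM, with WT replicate 2 the lowest. Ghrl, ghrelin, had 32.9, 23.3, 28.6 and 8.01 RPKM and was lowest in WT replicate 4. Gast and Gip, hormones of the stomach and gut, were under 1 RPKM on average. Genes in this paragraph from Nucb2 on were chosen after their values were seen.

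Acinar enzymes formed the other large block. The 28 acinar markers in the table held 14.8%, 12.3%, 26.7% and 22.1% of the RPKM, a mean of 19.0% ± 6.63, and 24 of them had a mean of at least 100 RPKM. With the hormones they made up 53.4%, 56.0%, 57.9% and 64.3%, so that 35.7% to 46.6% was left for all other entries. Ctrb1 alone had more RPKM than the other acinar markers together in each animal, by 1.48-fold to 2.18-fold. Sycn, a protein of zymogen granules, stood at 8026, 5510, 11012 and 13786 RPKM. Cpb1, carboxypeptidase B1, stood at 2414, 2074, 6806 and 3422 RPKM, and Clps, colipase, at 4235, 2334, 4611 and 3059 RPKM. WT replicate 3 was highest for 20 of the 27 acinar markers with a mean of at least 5 RPKM, and WT replicate 2 lowest for 22, against 20.4% and 16.9% of all tested entries. Under median-of-ratios scaling the highest animal was WT replicate 3 for 15 and WT replicate 4 for 12, against 20.4% and 31.2% of all tested entries. Under quantile normalization WT replicate 2 was lowest for 11, against 22.9% of all tested entries. Cela2a shares 23.7% of its 75-base stretches with Ctrc, so reads of this pair may be divided uncertainly.

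Reg genes code for lectins of acinar cells and injured islets. All 6 with a mean of at least 5 RPKM were highest in WT replicate 4, as deposited and under each of the 3 other scalings. WT replicate 4 was highest for 11.8% of all tested entries as deposited and for 31.2% under median-of-ratios scaling. The share was 26% under quantile normalization and 11.5% at an equal sum without Ins1 and Ins2. Reg1 stood at 2138, 1870.4, 3409 and 4037 RPKM. Reg2 stood at 1176, 1262, 1098 and 3509 RPKM and Reg3b at 627, 426, 288 and 1121 RPKM. For Reg2 and Reg3b WT replicate 4 stood clear of the other animals. Ductal markers held 0.306% ± 0.0677 of the RPKM, led by Spp1, osteopontin, at 677, 554, 1268 and 855 RPKM. Stromal markers held 0.0331%, endothelial markers 0.0166%, and immune markers 0.0435%.

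**Figure D2:**
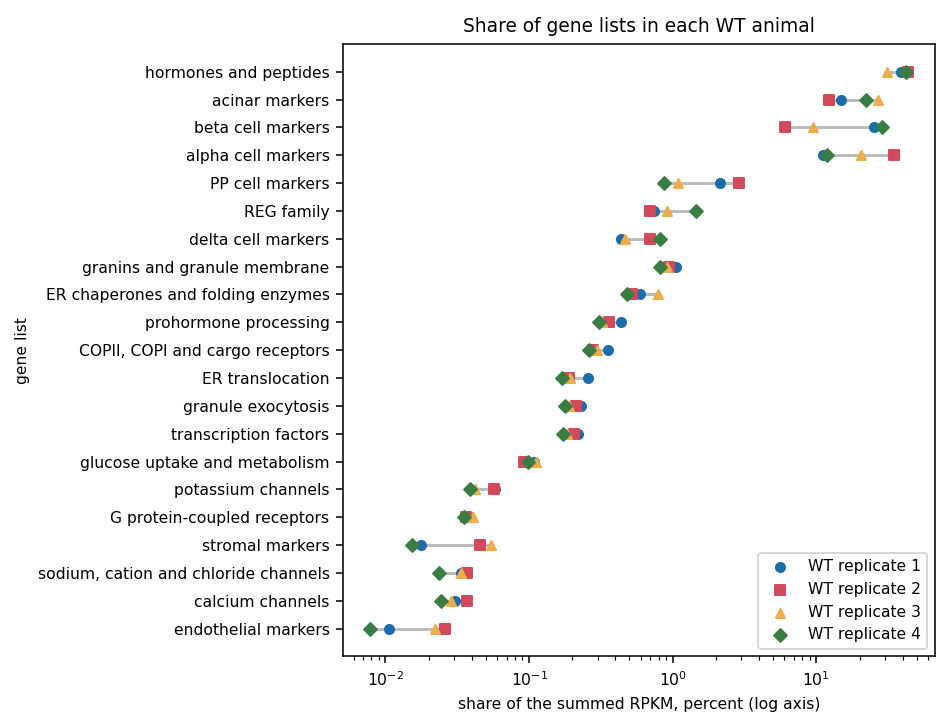
Share of the summed RPKM (percent, log axis) of 21 gene lists, with a symbol for each WT animal and a grey line for the range; lists overlap, as Ins1 and Ins2 are hormones and beta cell markers. Hormones and acinar markers hold most of the RPKM, and the beta and alpha cell markers lie in opposite order between WT replicates 2 and 4.

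Proteins that pack hormones into granules were high too, with a share near those of the REG family (0.949%) and ribosomal proteins (0.962%). Granins and granule membrane proteins held 0.929% of the RPKM, varying 1.30-fold between animals. All 14 had a mean of at least 1 RPKM and 7 of at least 100 RPKM. Their median was 227 RPKM, against 1.48 RPKM over all 23186 entries. Scg2 stood at 1376, 1118, 1330 and 1572 RPKM and Cpe, the carboxypeptidase that trims prohormones, at 1134, 959, 981 and 953 RPKM. These levels lay within 1.41-fold and 1.19-fold between animals. Chgb, chromogranin B, had 501, 671, 762 and 898 RPKM. Resp18, a granule protein, had 797, 956, 637 and 301 RPKM and was lowest in WT replicate 4.

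The convertases differed in level. Pcsk2, which cuts proglucagon and proinsulin, stood at 252, 296, 250.7 and 269.5 RPKM. Pcsk1, the convertase that beta cells also use, stood at 44.5, 12.6, 15.8 and 31.4 RPKM. Pcsk2 was higher than Pcsk1 in all 4 animals, with a ratio of 5.67, 23.5, 15.9 and 8.59. Pcsk1 was high in the animals that were high in insulin RNA, and Pcsk2 differed by 1.18-fold only. Pam, which amidates peptides, stood at 238, 165, 148 and 194 RPKM, and Scg5, the 7B2 partner of PCSK2, at 634, 399, 284 and 369 RPKM.

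ER folding enzymes held 0.593%, 0.523%, 0.788% and 0.484% of the RPKM. All 27 had a mean of at least 5 RPKM and 26 of at least 10 RPKM. The ER chaperones Hsp90b1 and Hspa5, which are GRP94 and BiP, led them. Hsp90b1 stood at 681, 686, 1146 and 644 RPKM and Hspa5 at 572, 627, 1181 and 690.3 RPKM, with WT replicate 3 above the other animals for both. Pdia3 and P4hb, which form disulfide bonds, had means of 245 ± 51.7 and 209.6 ± 45.8 RPKM. Wfs1 stood at 33.9, 27.4, 24.9 and 28.4 RPKM, a mean of 28.6 ± 3.83, which was rank 1725 of all entries. Among the 27 folding genes it was one of the lower ones, and its animals lay within 1.37-fold. Ero1lb, the beta cell oxidase of this list, had 34.5, 15.6, 38.7 and 33.1 RPKM with WT replicate 2 apart, and 12.2% of its 75-base stretches occur elsewhere in the transcripts.

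The share of genes for translocation into the ER was 0.258%, 0.191%, 0.194% and 0.169% of the RPKM, highest in WT replicate 1. Of 24 translocation genes, 22 had a mean of at least 10 RPKM and 1 of at least 100 RPKM. Spcs3, a signal peptidase subunit, led with 146, 82.6, 71.0 and 103 RPKM, and Ssr3, of the translocon, followed with a mean of 97.3 ± 8.45 RPKM. All 33 COPII, COPI and cargo receptor genes had a mean of at least 5 RPKM, from 7.45 to 118 RPKM. Sar1b, the GTPase that starts COPII coats, stood at 128, 88.1, 130 and 124 RPKM, and Copb2, a COPI subunit, at 108, 97.0, 99.3 and 110 RPKM. Copb2 was among the 5 steadiest entries above 100 RPKM. WT replicate 1 was highest for 20 of the 33, and for 10 under quantile normalization, against 41.6% and 25.2% of all tested entries.

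Granule fusion genes held 0.203% ± 0.0236 of the RPKM, and 30 of 37 had a mean of at least 10 RPKM. Snap25, the target SNARE of regulated secretion, led with 153, 166, 147 and 166 RPKM. Vamp8, a vesicle SNARE, had a mean of 93.1 ± 17.5 RPKM and Syt4, a synaptotagmin, 83.3 ± 33.4 RPKM. Syt4 stood at 126, 47.8, 68.8 and 90.4 RPKM, and like insulin RNA it was lowest in WT replicate 2. Stx1a, the syntaxin partner of Snap25, was at 3.18, 4.19, 2.80 and 3.31 RPKM and was chosen after its values were seen.

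Ion channels were low beside the secretory machinery. The 39 potassium channel genes held 0.0492% of the RPKM, and 21 had a mean of at least 1 RPKM, 8 of at least 10 RPKM and none of at least 100 RPKM. The subunits of the ATP-sensitive channel differed: Abcc8, the sulfonylurea receptor, stood at 72.7, 60.6, 44.7 and 54.5 RPKM, and Kcnj11, its pore, at 19.5, 26.6, 15.9 and 17.2 RPKM. Abcc8 was above Kcnj11 in all 4 animals with no overlap of the ranges, and Kcnj11 was named after its values were seen. Kcnk16, a background channel, had a mean of 35.2 ± 11.2 RPKM and Kcnip1, an accessory subunit, 45.6, 26.5, 21.5 and 37.9 RPKM. Of the calcium channel list 19 of 28 had a mean of at least 1 RPKM and 8 of at least 10 RPKM. Itpr1, a receptor that releases calcium from the ER, led with 13.8, 35.8, 22.4 and 11.7 RPKM. Cacna2d1 and Cacnb3, accessory subunits of voltage-gated channels, had 18.6 ± 4.42 and 17.5 ± 2.73 RPKM. Cacna1c, the L-type pore, had 16.7, 11.6, 11.1 and 17.9 RPKM.

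Sodium, cation and chloride channels were led by Ano6, a scramblase, at 29.1, 32.7, 34.9 and 29.7 RPKM and Clcn3, an exchanger of acidic vesicles, at 31.2, 32.4, 28.5 and 20.0 RPKM. Of these 36 genes 24 had a mean of at least 1 RPKM and 3 of at least 10 RPKM. The median member was at 1.37 RPKM for potassium channels, 3.16 RPKM for calcium channels and 3.06 RPKM for the sodium, cation and chloride list. No member of the 3 channel lists with a mean of at least 5 RPKM reached an SD of 1 on the log2 scale, which 1.41% of all tested entries did, so that 0 is near the background.

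Transcription factors held 0.196% ± 0.0202 of the RPKM. Of 49 factors 45 had a mean of at least 1 RPKM, 24 of at least 10 RPKM and 2 of at least 100 RPKM. These 2 were Xbp1, the factor of ER capacity, at 258, 166, 256 and 296 RPKM and Atf4, of the integrated stress response, at 293, 206, 176 and 205 RPKM. Factors that set endocrine identity were lower. Neurod1 stood at 55.5, 55.1, 32.3 and 53.2 RPKM. The following were named after their values were seen: Isl1 had 35.0 ± 11.7 RPKM, Pax6 26.9 ± 4.59 RPKM, Nkx6-1 10.1 ± 4.37 RPKM and Pdx1 10.0, 11.9, 5.29 and 11.3 RPKM. Mafa, a factor of mature beta cells, was listed at 0 in all 4 WT animals. Ndufs5, a respiratory subunit that cells in general use, was listed at 0 in all 4 as well, so a listed 0 may be a missing measurement. Hhex, of delta cells, stood at 15.3, 20.7, 12.5 and 2.89 RPKM and was the only one of 33 factors with a mean of at least 5 RPKM that had an SD of at least 1 (1.41% over all tested entries), with WT replicate 4 apart. Foxa2 stood at 16.0, 15.0, 4.00 and 6.20 RPKM.

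The lists of glucose handling genes and receptors followed, and in bulk samples their RNA cannot be assigned to beta cells. Glud1, glutamate dehydrogenase, led the metabolic list with a mean of 154 ± 29.9 RPKM, highest in WT replicate 2, followed by G6pc2, the islet glucose-6-phosphatase, with 152, 31.3, 101 and 124 RPKM. G6pc2 was lowest in WT replicate 2, as were the insulin genes. Slc2a2, the glucose carrier GLUT2 of rodent beta cells, stood at 7.81, 3.37, 11.7 and 8.05 RPKM and was again lowest there. Slc2a1, GLUT1, stood at 58.0, 34.1, 49.5 and 85.7 RPKM, above Slc2a2 in each animal. Of 36 G protein-coupled receptors 25 had a mean of at least 1 RPKM and 5 of at least 10 RPKM. Glp1r, the GLP-1 receptor, led with 65.1, 31.2, 73.4 and 84.0 RPKM, and Gpr56, an adhesion receptor, had 26.4 ± 4.58 RPKM.

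**Figure D3:**
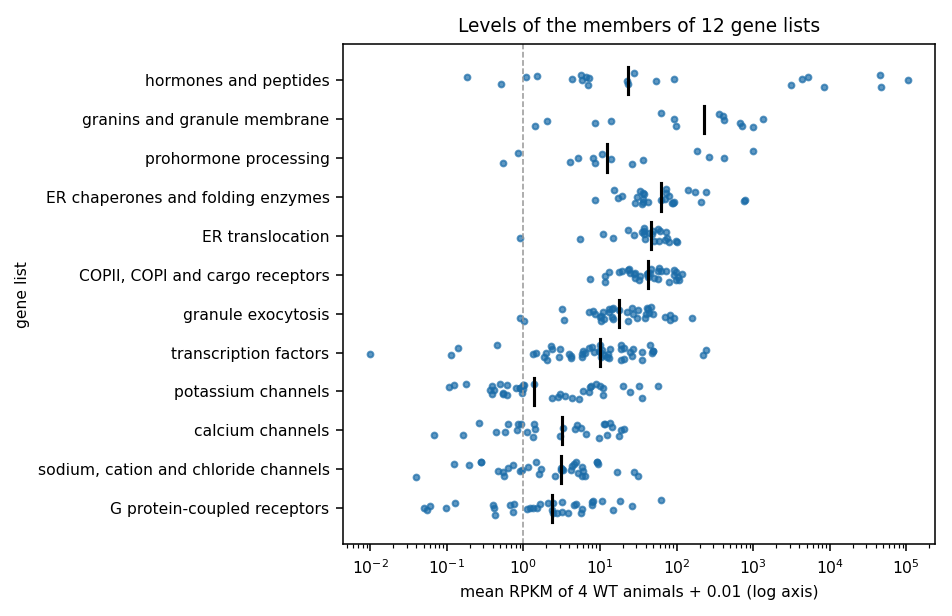
Mean RPKM over the 4 WT animals (with 0.01 added, log axis) of each member of 12 gene lists; each point is a gene, placed with random vertical scatter, the black bar is the list's median and the dashed line marks 1 RPKM. The highest median is 227 RPKM for granins and the lowest 1.37 RPKM for potassium channels.

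The spread between animals was measured as the SD of log2(RPKM + 0.1), which understates the change of low entries. Of the 7860 entries with a mean of at least 5 RPKM, which are 33.9% of the 23186, the median SD was 0.31, and read counting alone would give a median of 0.09. An SD of at least 1 was found in 111 entries, 1.41% of those tested. All 111 had an SD over 2 times their counting SD, 73 had a mean under 20 RPKM and 5 a mean of at least 100 RPKM. These 5 were Ins1 (SD 1.27), Ins2 (SD 1.15), S100a1 (SD 1.27), G6pc2 (SD 1.02) and Hamp (SD 1.05). S100a1, a calcium-binding protein, stood at 274, 47.9, 37.8 and 77.4 RPKM, and Hamp, the iron hormone hepcidin, at 73.6, 64.6, 132 and 321 RPKM. Both were named after their values were seen. Of the 17 hormones tested 4 passed, Ins1, Ins2, Cartpt and Cck. No member of the granin, processing, ER, COPII, exocytosis and channel lists did, which at 1.41% and at most 33 members tested per list is near the background.

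**Figure D4:**
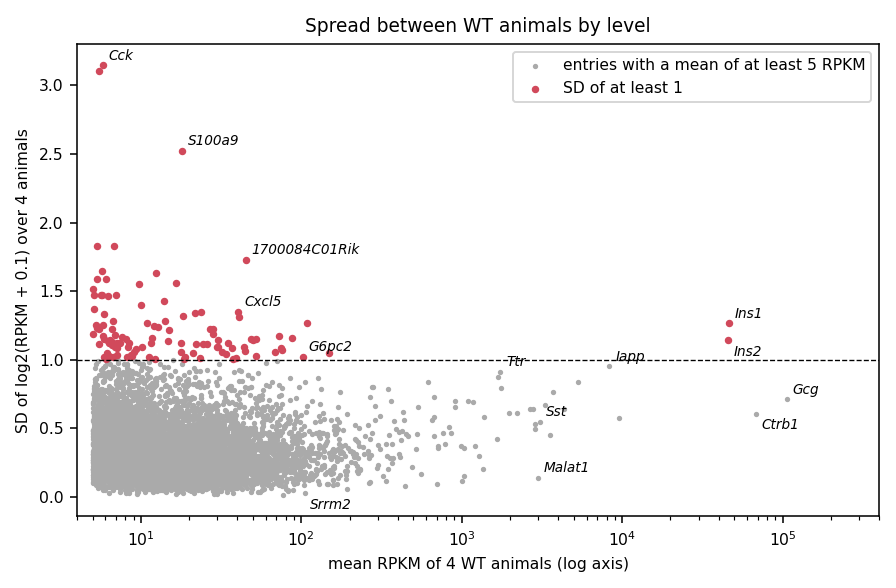
SD of log2(RPKM + 0.1) over the 4 WT animals against mean RPKM (log axis) for the 7860 entries with a mean of at least 5 RPKM. Red points are the 111 entries with an SD of at least 1, most of them at low levels, with Ins1 and Ins2 at the far right as the exception.

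The largest SD was that of Cck, cholecystokinin (SD 3.15), which stood at 8.43, 0, 10.5 and 4.31 RPKM. Its SD rests on WT replicate 2, where it was listed at 0. The next, 2300009A05Rik, was listed at 0 in WT replicate 3 and stood at 11.6, 6.87 and 3.38 RPKM in WT replicates 1, 2 and 4. S100a9, a calcium-binding protein of neutrophils, stood at 38.2, 7.08, 0.70 and 26.5 RPKM (SD 2.52). In WT replicate 3 its value was worth about 1.05 reads. Mgp, matrix Gla protein, stood at 9.49, 8.37, 2.86 and 0.52 RPKM. Beta-s, a haemoglobin chain of red cells, stood at 1.78, 8.88, 29.4 and 9.98 RPKM with WT replicate 3 highest, and 64.3% of its 75-base stretches occur in another globin transcript.

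The 111 entries were sorted by which animals lay above the entry's own mean, and 13 different patterns occurred. WT replicates 1 and 4 were high for 23 entries, WT replicates 2 and 3 for 21, and WT replicates 1 and 2 for 19. The same patterns held 10.7%, 12.5% and 24.8% of all entries tested. The pattern was kept by 100 of the 111 under median-of-ratios scaling and by 95 under quantile normalization.

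The 23 entries high in WT replicates 1 and 4 included both insulin genes. Cartpt, a peptide of the CART family, stood at 12.3, 5.21, 1.17 and 9.42 RPKM. Ttyh1, a chloride channel of neural cells, stood at 27.7, 6.23, 3.25 and 29.1 RPKM, and 1700084C01Rik at 75.7, 16.9, 6.86 and 81.3 RPKM. That the high and the low pair do not overlap is fixed by the sorting, for these 2 as for all 23 entries. Ankrd37, a target of hypoxia signalling, stood at 8.67, 3.57, 0.76 and 7.06 RPKM. Cd68, a lysosomal protein of macrophages, stood at 87.6, 23.7, 37.0 and 142 RPKM.

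The 21 entries high in WT replicates 2 and 3 were of mixed kinds. They included Hspa1b, a heat shock protein, Pdk4, Crp and the immediate early gene Fosb beside genes of vessels and connective tissue. Hspa1b, Pdk4 and Crp were named after their values were seen. Mgp, another matrix gene, had WT replicates 1 and 2 high instead. Sparc, which binds collagen, stood at 21.4, 77.5, 84.3 and 26.0 RPKM. Rgs5, a marker of pericytes, stood at 21.5, 57.8, 49.7 and 10.8 RPKM, and Bgn, a matrix proteoglycan, at 10.3, 31.7, 59.8 and 17.3 RPKM. Emcn and Esm1, both of endothelial cells, stood at 14.0, 35.2, 35.4 and 8.55 RPKM and at 3.17, 20.8, 13.1 and 3.02 RPKM. WT replicates 2 and 3 both lie above WT replicates 1 and 4 in all 21 entries. The sorting fixes this, so it is no separate result for these 5 genes. Mfap4, C7, Serpinf1 and Sparcl1, of matrix and plasma-like proteins, had SDs of 1.83, 1.46, 1.65 and 1.56 with the same animals high. Of the 5 stromal markers with a mean of at least 5 RPKM 3 had an SD of at least 1, and of the 6 endothelial ones 2, against 1.41% of all tested entries.

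All 5 alpha cell markers with a mean of at least 5 RPKM, Gcg among them, were highest in WT replicate 2. So were all 3 PP cell markers. Both held under each of the 3 other scalings. As deposited, WT replicate 2 was highest for 26.2% of all tested entries. Ttr, of alpha cells, stood at 1338, 3369, 1516 and 724 RPKM and Gc, the vitamin D binding protein, at 148, 197, 136 and 76.9 RPKM. Both were lowest in WT replicate 4, whereas Gcg was lowest in WT replicate 1. Of 12 beta cell markers 10 were lowest in WT replicate 2, and 8 under quantile normalization, against 16.9% and 22.9% of all tested entries. Over the members, the median deviation of WT replicate 2 from the mean of the 4 animals, less that of all entries, was -1.08 for beta cell markers and 0.75 for alpha cell markers on the log2 scale. The corresponding values in WT replicate 4 were 0.63 and -0.24. Under quantile normalization the values of beta and alpha cell markers were -0.85 and 0.67 in WT replicate 2. In WT replicate 4 they were then 0.43 and -0.72. The summed shares of both lists are almost wholly those of Gcg, Ins1 and Ins2.

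Interferon-stimulated genes formed a list that was drawn up after the values were seen, and its counts are therefore no independent evidence. Of its 23 members with a mean of at least 5 RPKM, 11 had an SD of at least 1. Of the same members 20 were highest in WT replicate 4 and 22 lowest in WT replicate 2. The shares of all tested entries for these and the next list were 1.41% variable, 11.8% highest in WT replicate 4 and 16.9% lowest in WT replicate 2. Oasl2, an antiviral protein, stood at 13.5, 5.62, 23.99 and 52.1 RPKM, Ifi44 at 11.1, 2.56, 15.2 and 27.2 RPKM and Isg15, a ubiquitin-like protein, at 25.5, 11.8, 38.8 and 71.3 RPKM. In these 3 genes WT replicate 4 was highest and WT replicate 2 lowest. The list of chemokines and inflammatory genes was similar at the low end, with 17 of 20 lowest in WT replicate 2. Lcn2, lipocalin 2, stood at 1068, 562, 1663 and 1428 RPKM, Il6, interleukin 6, at 30.8, 16.0, 96.7 and 65.5 RPKM and Cxcl5, a neutrophil chemokine, at 29.7, 8.65, 78.4 and 45.6 RPKM.

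Immediate early genes, which respond within minutes to stimuli and handling, were lowest in WT replicate 1 for 11 of 20. With the animals scaled to an equal sum without Ins1 and Ins2 the count was 9. Of all tested entries, 12% as deposited and 5.94% under that scaling were lowest in WT replicate 1. Egr1 stood at 40.7, 97.8, 81.6 and 62.3 RPKM, and Fosb at 1.92, 8.34, 11.5 and 4.64 RPKM. Clock genes were lowest in WT replicate 4 for 10 of 13 (44.1% of all tested entries as deposited), also under each of the 3 other scalings. Nr1d1 and Nr1d2, the REV-ERB repressors, stood at 67.7, 86.1, 92.3 and 55.1 RPKM and at 31.5, 29.3, 31.0 and 15.0 RPKM. The time of day at which the islets were taken is not given in the sources used here.

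**Figure D5:**
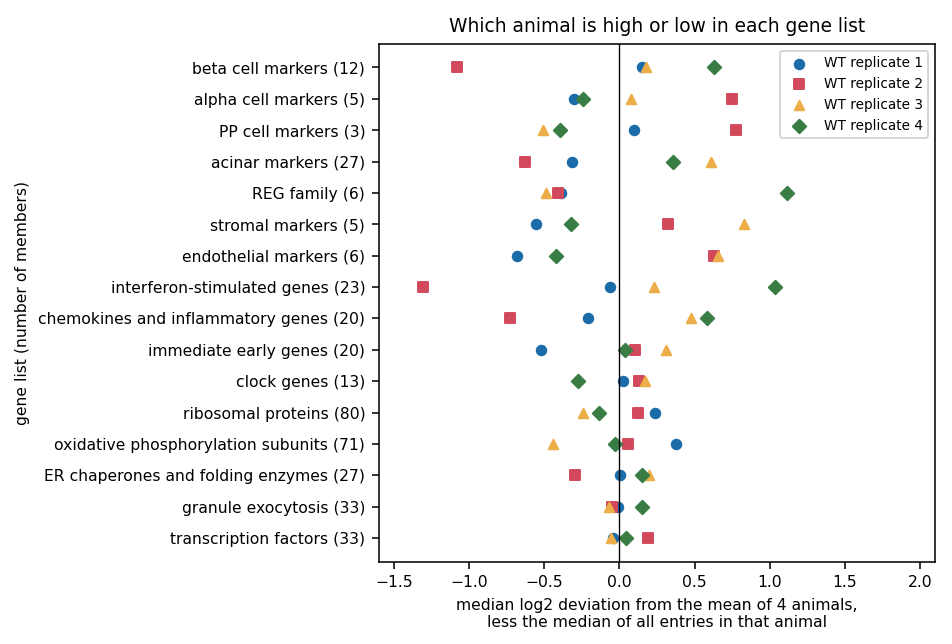
Median log2 deviation of the members of 16 gene lists in each WT animal from their mean over the 4 animals, less the median of all tested entries in that animal, as deposited. WT replicate 2 is lowest for beta cell markers (-1.08) and interferon-stimulated genes (-1.30) and WT replicate 4 is highest for interferon-stimulated genes (1.04) and the REG family (1.12).

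Short transcripts varied more than long ones. The median SD was 0.56 for entries under 500 nt, 0.52 from 500 to 1000 nt, 0.39 from 1000 to 2000 nt, 0.31 from 2000 to 4000 nt and 0.26 beyond. Read counting alone would give medians of 0.22, 0.16, 0.14, 0.10 and 0.07 in the same classes. Of the 111 variable entries 35.1% were under 1000 nt, against 6.98% of those tested. Under 500 nt the median deviation was 0.58 in WT replicate 1 and -0.49 in WT replicate 3, and from 4000 nt it was 0.09 and 0.01. Ndufa11, a subunit of respiratory complex I, stood at 10.5, 5.92, 0.90 and 5.65 RPKM, and Trappc6a, a vesicle tether, at 11.7, 8.14, 0.89 and 3.45 RPKM. WT replicate 1 was the highest animal for 41.6% of all tested entries, and for 25.2% under quantile normalization. It was highest for 60 of 71 oxidative phosphorylation subunits and for 53 of 80 ribosomal proteins, and under quantile normalization for 48 and 40. As deposited it was highest for most members of some other lists, among them 24 of 36 proteasome subunits and 11 of 16 housekeeping genes. Under quantile normalization these counts were 14 and 5. The part of transcript length, RNA quality and depth in these differences was not tested.

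Some transcripts hardly moved. Srrm2, a splicing factor, stood at 104, 107, 105 and 103 RPKM, an SD of 0.03 on the log2 scale against 0.02 from counting. Fkbp1a (SD 0.06), Eef1a1 (SD 0.08), Snap25 (SD 0.09) and Copb2 (SD 0.09) completed the 5 steadiest entries with a mean of at least 100 RPKM. Eef1a1 shares 41.7% of its 75-base stretches with other transcripts. The 16 housekeeping genes with a mean of at least 5 RPKM had a median SD of 0.24 (all tested entries 0.31), and none reached an SD of 1. The widest was B2m, which stood at 2576, 774, 1015 and 2406 RPKM (SD 0.88). Gapdh, named after its values were seen, stood at 311, 197, 206 and 385 RPKM (SD 0.47), and Actb at 533, 309, 323 and 510 RPKM (SD 0.42).

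The same measure was taken within the other genotypes, with no comparison of their levels. Of the 7547 entries with a mean of at least 5 RPKM in both groups, 254 (3.37%) had an SD of at least 1 among the 4 Wfs1KO animals. They included 46 of the 101 that were variable in WT, which is 45.5% of the WT entries and 18.1% of the Wfs1KO entries. Among the Wfs1HZ animals 396 of 7480 (5.29%) were variable, and 48 of 95 WT entries were among them, 50.5% and 12.1% of each list. Without Wfs1HZ replicate 2, the library with the lowest such total (2177000 reads), 271 (3.62%) were variable and 29 were shared, 30.5% and 10.7% of each list. Ins1 had an SD of 1.27 in WT, 1.72 in Wfs1HZ and 1.08 in Wfs1KO animals, and Ins2 of 1.15, 1.58 and 0.83; without Wfs1HZ replicate 2 the Wfs1HZ values were 0.99 and 0.92. Ctrb1 had an SD of 0.61 in WT, 2.23 in Wfs1HZ and 2.14 in Wfs1KO animals, and 1.12 in Wfs1HZ without replicate 2.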

How the data were processed

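The authors made cDNA from 10 ng of total RNA, sequenced fragment libraries on a SOLiD instrument (75 bp forward and 35 bp reverse reads), used LifeScope to place the reads on mm10, and deposited RPKM, not log-transformed, for each animal. The counting tool and annotation are not given in the sources used here. Groups and replicate numbers came from the labels. RPKM were used as deposited, and no test between groups or across genes was run because the 4 WT animals are 1 group; Dixon's limit was applied within it. Depth, as the read total by which RPKM are scaled, was estimated from entries under 200 nt: 77.6% to 78.6% of their WT values were within 0.1 of a whole read, against 20% if uniform. Transcript lengths came from GENCODE M21 (97.5% of entries). Repeated names (58) and marked copies (969) were kept. The pseudocount was 0.1 RPKM, the minimum mean 5 RPKM and the threshold an SD of 1.

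The members and gene lists were chosen with earlier results of these data known. The genes named are the 25 highest, the 4 highest and 2 most variable of each of 41 lists, the defining hormones and Wfs1, the 20 most variable and the 5 steadiest above 100 RPKM. Others are marked as chosen after their values were seen. Alternatives were other pseudocounts, minimum means and scalings, shares of reads, small RNA genes and copies in or out, the median, and each animal left out. Values were computed in Python (3.11.15) with pandas (2.3.3), scipy (1.17.1) and numpy (2.4.6), and plotted in matplotlib (3.10.9). The spread measure was run on simulated data. Its variable entries were set well above the threshold, so entries near the threshold were not tried. Some genes that the rule names are not reported here.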

Additional observations from a re-analysis of the deposited data

Results flagged for a closer look

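Among the 4 WT animals, a value was set apart where its distance to the nearest other animal, divided by the whole range, exceeded Dixon's limit for groups of 4. Of 260 values examined (41 list shares and 219 genes on the log2 scale) 17 exceeded it, which is 6.54%. Chance gives about 1 in 20 for values that were not selected, so the number is near it, and some of these genes were named for their spread, to which that rate does not apply. The animal that stood apart was WT replicate 3 in 6 cases, WT replicate 4 in 6, WT replicate 2 in 3 and WT replicate 1 in 2.

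WT replicate 3 was apart on the high side for 5 values. The share of erythroid markers, of red cells, was 0.00166% against 0.00037% to 0.000494% (ratio 0.904). Only 3 of the 7 markers of this list had entries, and Beta-s is not among them. Beta-s alone held 0.000324%, 0.00167%, 0.00542% and 0.0016% in WT replicates 1 to 4. Pnlip, pancreatic lipase, had 4709 RPKM against 1856 to 2112 (ratio 0.861), and Cela2a, an elastase, 2453 RPKM against 1299.6 to 1440.1 (ratio 0.839). Hsp90b1 had 1146 RPKM against 644 to 686 (ratio 0.891) and Nr4a2, an immediate early gene, 19.2 RPKM against 5.78 to 6.82 (ratio 0.863). It was low for Neurod1, at 32.3 RPKM against 53.2 to 55.5 (ratio 0.922).

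WT replicate 4 was high for Reg2, at 3509 RPKM against 1098 to 1262 (ratio 0.880), and for Nnt, a mitochondrial transhydrogenase, at 10.5 RPKM against 7.62 to 7.98 (ratio 0.857). It was low for Slc30a8, the granule zinc carrier, at 37.2 RPKM against 69.1 to 76.3 (ratio 0.861), and for Tspan8, a ductal tetraspanin, at 16.6 RPKM against 52.1 to 61.8 (ratio 0.870). It was low as well for Nr1d2, at 15.0 RPKM against 29.3 to 31.5 (ratio 0.906), and for Ddx3y, a Y-linked helicase, at 7.74 RPKM against 18.3 to 21.6 (ratio 0.836).

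WT replicate 2 was low for Epcam, at 151 RPKM against 170.5 to 173 (ratio 0.904), for Sar1b, at 88.1 RPKM against 124 to 130.4 (ratio 0.878), and for Ero1lb, at 15.6 RPKM against 33.1 to 38.7 (ratio 0.830). WT replicate 1 was high for Cpe, at 1134 RPKM against 953 to 981 (ratio 0.833), and for Asns, asparagine synthetase, at 183 RPKM against 141 to 146 (ratio 0.873).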

How the results depend on the processing

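No paired analysis was possible because no result compares levels between groups. As shares of reads instead of RPKM, the 10 highest entries held 29.2%, hormones 19.5% and acinar markers 10.2%. Without Ins1 and Ins2 the hormones held 23.0%. The number of variable entries was 69 with a pseudocount of 1, 711 with a minimum mean of 1 RPKM, 38 with 20 RPKM, 4391 with no minimum and 186 by a range of at least 2 on the log2 scale. Without Wfs1HZ replicate 2, an alternative chosen after seeing the data, 29 entries were shared with Wfs1HZ. Leaving out each WT animal in turn gave 51.6% to 55.1% for the 10 highest entries, 37.3% to 41.5% for hormones, 16.4% to 21.2% for acinar markers and 131 to 150 variable entries. Other scalings gave 108 to 119 variable entries. Of the 111 main variable entries, 65 to 81 stayed variable with 1 animal left out and 91 to 102 under other scalings. Transcripts of a few reads were limited by depth, most in WT replicate 3.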
